A study of Mus musculus with 25 samples.

Results

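The comparison described here is that of the sperm RNA of adult FVB/N males exposed to di-(2-ethylhexyl) phthalate (DEHP) before birth with that of males of the same strain whose mothers received the vehicle. It takes in 16471 of the 24358 genes in the deposited table, namely those with a successful estimate in FVB.CTL.F1 and FVB.D300.F1 and at least 10 counts in one of them. FVB.D300.F1 are first-generation FVB/N males whose mothers were given 300 mg/kg/day DEHP in corn oil by mouth from embryonic day 9 to 19, and FVB.CTL.F1 are the first-generation males of mothers given corn oil alone. Both groups were sampled at 14 weeks of age, with 5 libraries each, and the labels name no altered allele. The sperm had swum out of opened cauda epididymides, a sort for cell type is not described, and its RNA was read by all-RNA-seq, a protocol that repairs RNA ends so that every RNA type can be sequenced. The table gives 1 estimated fragment count per gene for each group of 5 libraries. No spread between libraries could therefore be computed, no p-value is given, and a difference is described by the 2 counts and by their log2 ratio, DEHP over vehicle, after 1 was added to each. Pairs of counts below stand in the order vehicle, DEHP, with the log2 ratio in brackets. Counts are not divided by gene length, so they compare groups and not genes. The only error at hand is the SD of each count under Cuffdiff's own model, and a difference is said to exceed or to lie within the model SD of the difference.

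DEHP is a plasticiser whose metabolites lower fetal testosterone synthesis, and the epididymis is a duct that depends on androgens for its form and its secretions. Sperm leave the testis with their own stock of RNA and then pass through the initial segment, caput, corpus and cauda of this duct, where the epithelium releases lipocalins, beta-defensins, cystatins, protease inhibitors and antioxidant enzymes onto them. Each family is divided among the segments, so that some members are made at the head of the duct and others at its tail. RNA of a cauda sperm suspension can hold RNA of sperm and RNA of the duct, of blood and of muscle around it. In such bulk samples, more cells of a type and more RNA per cell cannot be told apart.

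At the threshold of 2 log2 units, 109 genes (0.662%) were higher in FVB.D300.F1 and 3 genes (0.0182%) were lower. At 1 log2 unit, 355 genes (2.16%) were higher and 102 (0.619%) were lower. Most of the transcriptome stayed close to its control level, since the median log2 ratio of all genes was 0.00, the 5th and 95th percentiles were -0.47 and 0.70, and 86.4% of genes lay within 0.5 of zero. With the groups scaled to equal totals, the split at 1 log2 unit was 296 higher and 143 lower, a share of higher genes of 67.4% in place of 77.7%, while at 2 log2 units it kept to 96.4% against 97.3%. The estimated counts summed to 7568129 without and 8278486 with DEHP, and the latter total includes 219328 counts of Crisp1, a sperm-coating protein of the epididymis whose estimate failed in FVB.CTL.F1. Crisp1 and 39 other genes with a failed estimate in either group are missing from every ratio. Of the genes higher by at least 2 log2 units, 92 of 109 exceeded the model SD of the difference, as did 1 of the 3 lower ones. These genes were chosen for a large ratio of the same counts, so exceeding the model SD was favoured by that choice. Among all genes compared, 931 exceeded it. The 10-count minimum fell between Mgam, kept with 9.57 and 10.0002 counts, and Dpf1, left out with 8.23 and 9.9994 counts.

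The higher genes reached from near absence to abundance. Of the 109, 62 had under 10 counts in FVB.CTL.F1, 30 of them under 3, whereas after DEHP 73 reached 100 counts or more and 27 reached 1000. A gene under 10 counts in the control group could enter the comparison only through its count with DEHP, so its direction was fixed by the minimum, and the ratio of a gene under 3 counts depends on the 1 that was added. Summed, the 109 genes made up 0.0834% of the counts of all genes compared in the controls and 1.29% after DEHP. The largest log2 ratios among genes with at least 100 counts were those of Gm6792, Lcn5, Lcn8, 9230104L09Rik, Lcn9 and Gpx5, between 8.38 and 9.96. Gm6792, of which only the symbol is known here, had 0.816 counts without and 1811 with DEHP.

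**Figure D1:**
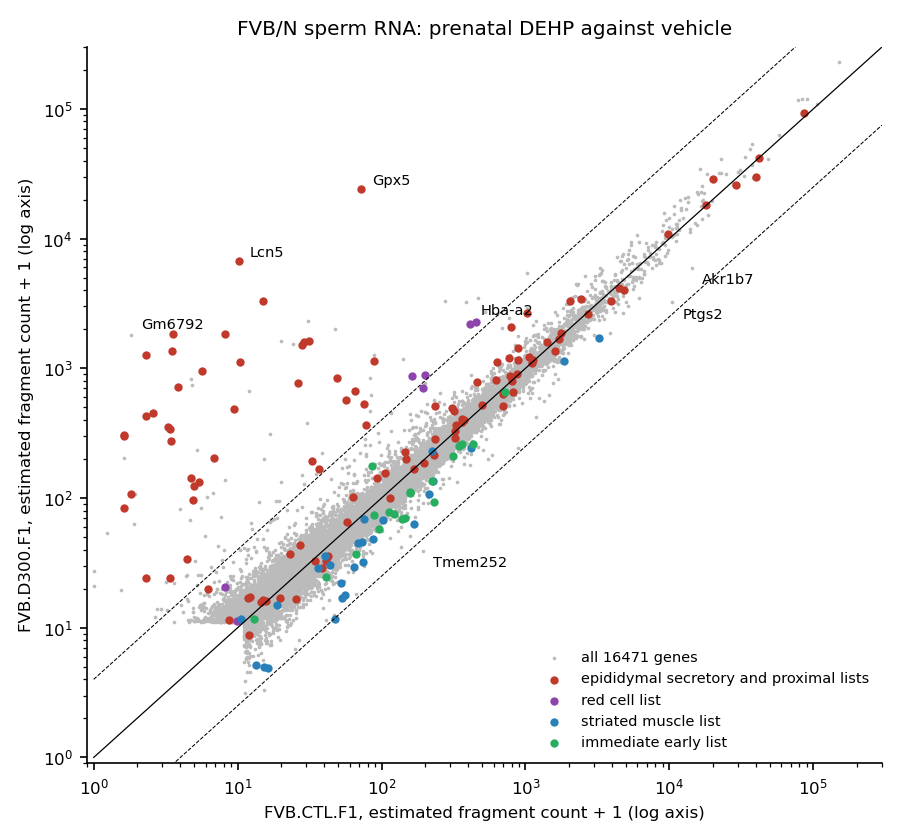
Estimated fragment counts of the 16471 genes in FVB.CTL.F1 (horizontal, log axis, 1 added) and FVB.D300.F1 (vertical, log axis, 1 added). Each point is 1 gene with 1 value per group, the solid line marks equal counts and the dashed lines mark a ratio of 4 in either direction. Some of the epididymal genes in red stand far above the upper line, from 24121 counts of Gpx5 downwards. Others in red, such as the abundant Defb28, lie between the dashed lines, and the lower line is crossed by 3 genes.

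The lipocalins, small secreted proteins that carry retinoids, steroids and other hydrophobic molecules, split into members that were nearly absent from the controls and members with high counts in both groups. All 8 genes of the list were measured, and 5 of them were higher by at least 2 log2 units. Lcn5, the epididymal retinoic acid-binding protein, had 9.18 counts in the controls and 6686 after DEHP. Lcn8 had 1.32 and 1273, Lcn9 2.52 and 1355, Lcn10 1.60 and 454 and Lcn6 1.29 and 428 counts in the same order. Their log2 ratios lay between 7.45 and 9.36, and Lcn5 alone among the 5 was within the model SD, with a coefficient of variation under the model of 1.38 in FVB.D300.F1. The other three differed by less than 1 log2 unit. Ptgds, the lipocalin-type prostaglandin D synthase, had 20044 and 28918 counts (log2 ratio 0.53), Lcn12, another retinoid carrier, had 891 and 1155 (0.37), and the siderophore-binding Lcn2 had 638 and 1113 (0.80). The list median was 7.50 against 0.00 for all genes, and it was 6.79 when any value under 3 was raised to 3. The 5 higher members had under 10 counts in the controls, so their direction was fixed by the minimum.

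The 5 higher lipocalins are neighbours on chromosome 2 of GRCm38, between positions 25653120 and 25825537 of GENCODE M21, a stretch of 172 kb that holds 6 genes of the comparison. The remaining one is Bmyc, a Myc-related gene, with 23.8 and 61.4 counts and a log2 ratio of 1.33. Because these genes were higher together, the 150 bases before the start of 4 of them are shown, with the same stretch of Gpx5 and of Akr1b7, which had the highest counts among genes lower by at least 1 log2 unit. The sequences are from RefSeq on GRCm38.p6, read 5′ to 3′ on the strand of the gene. Capitals mark, on either strand, the steroid receptor half-site AGAACA, the forkhead site TGTTTAC, the PEA3/ETS site AGGAAG and the TATA box TATAAA.
Lcn5, chr2:25657802-25657951, plus strand: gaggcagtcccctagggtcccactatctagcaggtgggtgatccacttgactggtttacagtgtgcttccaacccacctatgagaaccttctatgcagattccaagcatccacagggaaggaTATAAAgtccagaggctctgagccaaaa
Lcn8, chr2:25652968-25653117, plus strand: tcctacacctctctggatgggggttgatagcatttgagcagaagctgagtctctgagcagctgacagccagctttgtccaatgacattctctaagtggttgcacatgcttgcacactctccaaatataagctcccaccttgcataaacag
Lcn9, chr2:25823003-25823152, plus strand: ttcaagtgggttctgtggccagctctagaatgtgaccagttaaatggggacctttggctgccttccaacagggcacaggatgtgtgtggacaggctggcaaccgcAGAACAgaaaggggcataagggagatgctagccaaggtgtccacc
Lcn10, chr2:25682576-25682725, plus strand: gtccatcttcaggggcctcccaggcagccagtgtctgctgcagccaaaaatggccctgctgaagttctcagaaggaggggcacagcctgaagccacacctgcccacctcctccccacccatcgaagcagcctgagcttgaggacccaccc
Gpx5, chr13:21292687-21292836, minus strand: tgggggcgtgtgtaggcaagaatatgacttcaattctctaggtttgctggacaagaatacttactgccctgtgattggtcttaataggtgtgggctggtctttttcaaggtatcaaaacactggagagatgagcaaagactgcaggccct
Akr1b7, chr6:34412212-34412361, plus strand: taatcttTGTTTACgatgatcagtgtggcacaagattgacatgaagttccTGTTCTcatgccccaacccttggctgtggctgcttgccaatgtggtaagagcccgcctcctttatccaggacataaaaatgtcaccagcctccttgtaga
Of the 4 motifs, Lcn5 held a TATA box 28 bases before its start and Lcn9 a half-site 45 bases before its start. Akr1b7 held a half-site, read from the opposite strand, and a forkhead site at 100 and 143 bases. Lcn8, Lcn10 and Gpx5 held none of these letters in this window.

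The same motifs were counted in the full RefSeq windows, from 250 bases before to 50 bases after the start, as a description. Such a window was at hand for 77 of the 109 genes higher by at least 2 log2 units, 71 of the 102 lower by at least 1, and 12184 of all 16471 genes. AGAACA was present in 24 of the 77 windows (31.2%), in 13 of the 71 (18.3%) and in 15.9% of all windows of compared genes, or 21.3% of the 27025 genes in the table of promoters. TATAAA was present in 11 of the 77 (14.3%), in 18 of the 71 (25.4%) and in 9.73% of all, or 15.7% of the table. AGGAAG was found in 39.0%, 40.8% and 37.6%, and TGTTTAC in 0, 2 and 383 windows.

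Beta-defensins are small cationic peptides of innate immunity, many of which coat sperm in the epididymis, and the Spag11 genes encode related sperm-binding peptides. The list found 45 genes, of which 12 were under 10 counts in both groups. Among the other 33, 17 were higher by at least 2 log2 units against the background of 0.662%, none was lower by 1, and the median log2 ratio was 2.21. Members under 10 counts in the controls entered only through their count with DEHP, so their direction was fixed by the minimum. Among all compared genes, 30 of 31 under 3 control counts and 32 of 561 from 3 to 10 were higher by 2. With no minimum, the median over all listed genes was 0.69. The highest ratios belonged to Defb30 with 7.18 and 1829 counts (7.81), Defb12 with 2.88 and 719 (7.54) and Defb25 with 2.30 and 355 (6.75). Spag11b had 30.4 and 1613 counts (5.68) and Spag11a 77.2 and 362 (2.21). The remaining 16 members stayed between -0.45 and 0.77, and they include those with the highest counts. Defb28 had 29213 and 25757 counts (-0.18), Defb43 4447 and 4133 (-0.11), Defb2 1601 and 1355 (-0.24) and Defb1 702 and 515 (-0.45). All 12 members with at least 100 counts in FVB.CTL.F1 were among these 16.

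Position on the chromosome did not divide the defensins cleanly. On chromosome 14, Defb47, Defb48, Defb30 and Defb42 were each higher by at least 2.54 log2 units within 80.6 kb, and Defb43 in the same stretch was not, as given above. On chromosome 2, Defb19, Defb20, Defb21, Defb23, Defb25, Defb29 and Defb45 were higher within 164 kb, whereas Defb22 (457 and 778 counts), Defb26 (62.3 and 101) and Defb28 among them stayed under 1 log2 unit. On chromosome 8, Defb12, Spag11b and Spag11a lay in 47.6 kb with no other gene of the comparison between them. Defb18 and Defb41 formed a pair on chromosome 1, with 64.2 and 668 and 1.31 and 23.1 counts. Defb30 and Defb42 overlap on opposite strands, so their separation rests on the strand setting of the mapping.

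Cystatins inhibit cysteine proteases, and the tract-specific members are named for the epididymis and testis. Of 10 listed genes, 4 were under 10 counts in both groups and 4 were higher by at least 2 log2 units. These were 9230104L09Rik with 2.53 and 1827 counts (9.01), Cst12 with 0.614 and 299 (7.54), Cst11 with 2.41 and 337 (6.63) and Cst8, or cystatin-related epididymal spermatogenic protein, with 3.87 and 94.99 (4.30). They are the only genes of the comparison between positions 148768609 and 148865038 of chromosome 2. The widely expressed Cst3 had 1767 and 1881 counts (0.09) and Cst6 21.9 and 36.3 (0.70). The 4 higher members had under 10 counts in the controls, so their direction was fixed by the minimum. The list median was 5.47, and 1.01 with no minimum.

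Among inhibitors of serine proteases, fewer members differed. In the list of WFDC and Kunitz inhibitors, 2 of 22 measured genes were higher by at least 2 log2 units, namely the neighbours Spint4 with 9.46 and 1123 counts (6.75) and Spint5 with 2.45 and 273 (6.31). Both had under 10 counts in the controls, so their direction was fixed by the minimum, and the list median was 0.04. Of the Spink inhibitors, Spink2 (29.5 and 375 counts) and Spink11 (385 and 3244) were higher by at least 2 log2 units and Spink12 (156 and 446) by 1 to 2, out of 10, although Spink11 was within the model SD. Spink8 and Spink10 had 38020.3 and 29301 and 10763 and 10748 counts.

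The ribonucleases of the tract, secreted relatives of pancreatic ribonuclease, showed the same kind of split. Rnase10 had 25.3 and 766 counts (4.87), Rnase13 4.40 and 133 (4.63) and Rnase9 797 and 2065 (1.37), whereas Rnase12 with 1053 and 1232, Rnase11 with 375 and 398 and Rnase4 with 362 and 383 counts stayed under 0.25. Gpx5, the secreted glutathione peroxidase that removes peroxides in the caput, showed the largest gain in counts among genes higher by at least 1 log2 unit. Its count was 71.4 in the controls and 24121 after DEHP, yet its coefficient of variation under the model was 3.32 in the latter, so that the difference lay within the model SD. Gpx6, an olfactory relative, had 5.27 and 19.0 counts (1.68). The plasma and epididymal Gpx3 had 40117 and 29615 counts (-0.44), and Gpx1 and Gpx4, present in most cells, had ratios of -0.33 and -0.02.

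Further secreted and surface proteins of the duct were among the highest ratios. Muc5b, a gel-forming mucin, had 13.9 and 3279 counts (7.78, within the model SD) and the membrane mucin Muc15 had 4.68 and 953 (7.39), while Muc4 and Muc20 had ratios of 0.64 and 0.56. Adam28, a metalloprotease-like surface protein, had 19.1 and 1612 counts (6.32, within the model SD), and its relative Adam7 had 37309.9 and 53922 (0.53). Teddm1a, Teddm1b and Teddm2, epididymal membrane proteins that lie together on chromosome 1, had 3.84 and 738, 14.4 and 199 and 4.04 and 119 counts. Bsph1, a member of the binder of sperm protein family, had 0.926 and 107 counts and Clpsl2, a colipase-like protein, 0.624 and 304. Ovch2, a secreted serine protease-like protein, had 8.44 and 485 counts (5.69). All of these apart from the 2 named mucins and Adam7 exceeded 3 log2 units.

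In a list of 26 other genes known from the proximal epididymis, 8 of 21 measured genes were higher by at least 2 log2 units, against the background of 0.662%. A further 2 were higher by 1 to 2, and the median was 0.68. Members under 10 counts in the controls, among them Clpsl2 and Ovch2, entered only through their count with DEHP, so their direction was fixed by the minimum. Ros1, the receptor tyrosine kinase on which the initial segment depends for its differentiation, had 55.9 and 569 counts (3.32). Pemt, which makes phosphatidylcholine, had 35.7 and 165 counts (2.18), and Mfge8, a secreted phosphatidylserine-binding protein, had 1020.3 and 2652 (1.38). Of the 12 members with at least 100 counts in the controls, none was past 2 log2 units and 2, Mfge8 and Ggt1, were past 1. Among the other ten, Cuzd1 had 86519.5 and 93494 counts (0.11), Clu, the chaperone clusterin, 41657 and 42154 (0.02), Abcb5 17999 and 18309.8 (0.02) and the water and glycerol channel Aqp9 1697 and 1672 (-0.02).

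**Figure D2:**
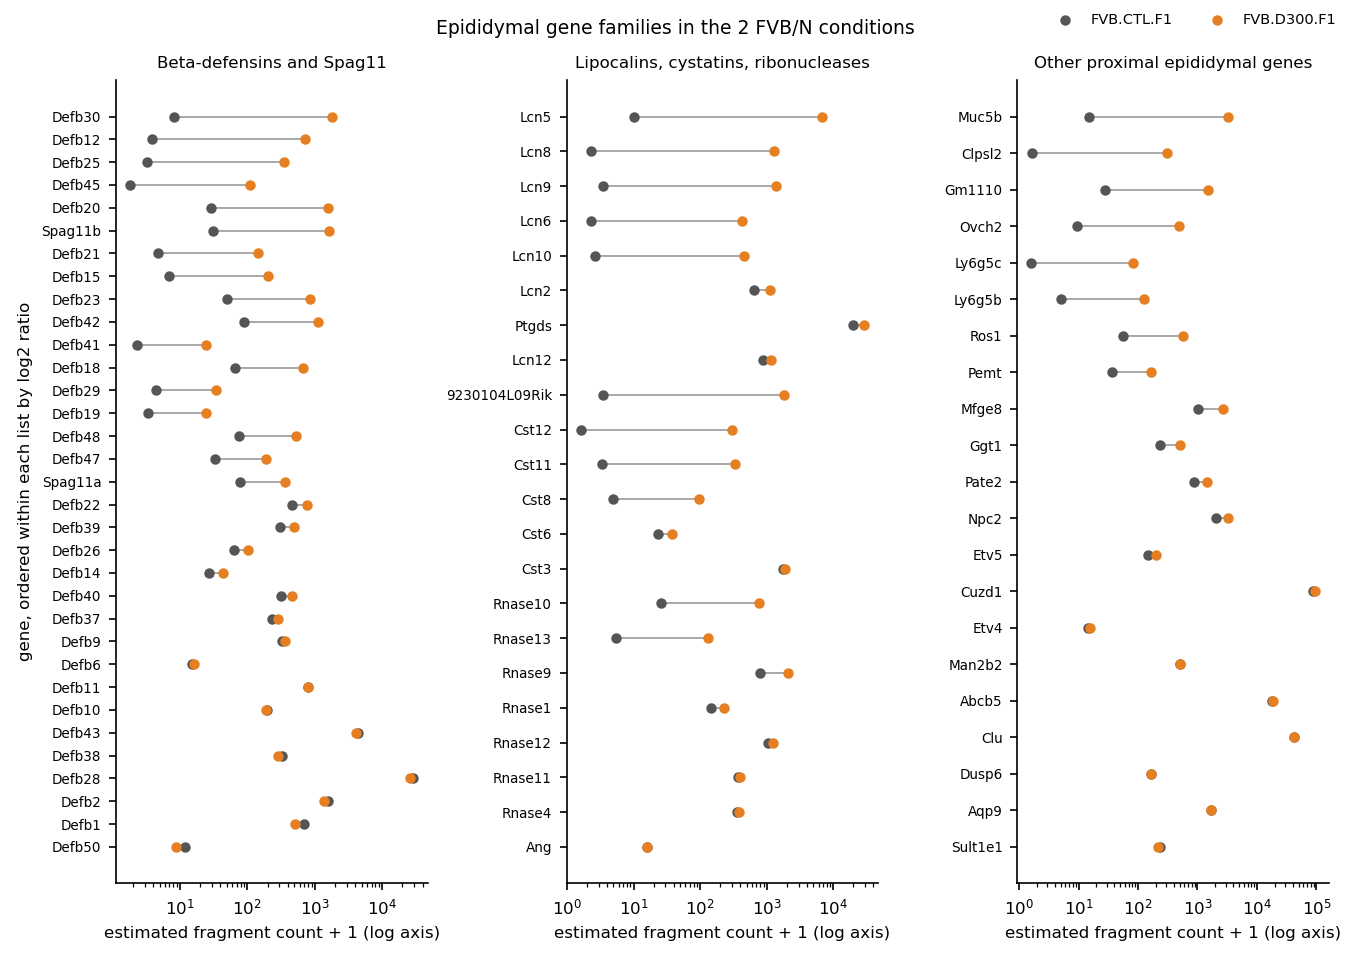
Estimated fragment counts (log axis, 1 added) of every measured member of 5 epididymal gene lists in FVB.CTL.F1 (grey) and FVB.D300.F1 (orange), with a line joining the 2 values of a gene and genes ordered by log2 ratio within each list. Genes that were low in the controls, such as Lcn8 with 1.32 and 1273 counts, span long lines, while abundant ones such as Defb28 with 29213 and 25757 counts nearly coincide.

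Single genes for transport, sugar chains and signalling were also among the higher ones. Slc38a5, a glutamine transporter, had 46.2 and 2019.9 counts (5.42), Slc16a10, a carrier of aromatic amino acids, 83.2 and 627 (2.90), and Slc7a5, a carrier of large neutral amino acids, 255 and 649 (1.35). In a list of amino acid transporters chosen after the values were seen, 3 of 21 were higher by at least 2 log2 units and the median was 0.05. Man1a, a mannosidase that trims N-glycans in the Golgi, had 273 and 3279 counts (3.58). St6gal1, which adds sialic acid, had 629 and 2638 counts (2.07). Both lay within the model SD. Fut1, a fucosyltransferase, had 3.66 and 67.1 counts (3.87) and St8sia6, a sialyltransferase, 5.72 and 108 (4.02). A list of sialyl- and fucosyltransferases was also chosen after the values were seen. In it 3 of 25 measured genes were higher by at least 2 log2 units, 10 had lower counts and the median was 0.14.

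Among surface and endocytic genes, Rhcg, an ammonia channel, had 10.9 and 668 counts (5.81), Ap1s2, a subunit of the clathrin adaptor of the Golgi, 29.9 and 2330.5 (6.24) and the tight junction protein Cldn2 82.7 and 469 (2.49). Adgrg2, an adhesion receptor of the efferent ducts and proximal epididymis, had 87.5 and 1268 counts (3.84, within the model SD), and Gfra1, a co-receptor for glial cell-derived neurotrophic factor, 81.8 and 847 (3.36). Ace, angiotensin-converting enzyme, which has forms in epithelium and in germ cells, had 523 and 2693 counts (2.36). C4bp, a regulator of complement, was the only one of the 109 genes with at least 1000 counts in the controls and had 1023 and 5452 counts (2.41, within the model SD). General transport genes of principal cells did not share these ratios, since none of 18 was higher by 1 log2 unit and 1, the sodium channel subunit Scnn1g, was lower (16.2 and 6.41 counts).

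Most genes for steroid receptors and steroid enzymes were near their control levels. Of the estrogen receptors, Esr1 had 498 and 490.3 counts (-0.02) and Esr2 46.4 and 63.2 (0.44). The exception in the list of 14 measured receptors and steroid enzymes was Srd5a2, which converts testosterone to dihydrotestosterone in the proximal duct, with 70.1 and 223 counts and a ratio of 1.66. Of 13 measured genes in the list of androgen-regulated genes, 3 were higher by at least 2 log2 units. These were Lcn5, Gpx5 and Pbsn, or probasin, the last with 0.559 and 18.4 counts. The others in the list lay between -0.45 and 0.33, among them Fkbp5 with 2029 and 1992 counts (-0.03). The paper describes further genes as androgen-regulated, among them Lcn8, Lcn9, Defb30, Spag11b and Spint4. These named genes are outside the list, and each was higher by at least 2 log2 units. The paper groups them by a rise in these same FVB.D300.F1 libraries, so their direction was fixed by that choice. Mup3, which it also describes as androgen-regulated, had 37.9 and 17.1 counts (-1.10). The share of higher genes in the list therefore depends on the choice of its members. Among 12 transcription factors of the duct, Foxa1 had the highest ratio, 0.92 with 239 and 451 counts, and none was past 1 log2 unit. No gene of 23 in the list of PPAR targets was past 1 log2 unit, and their median was -0.15.

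Some of the higher genes lay close together on the chromosomes. Of 104 genes placed by GENCODE M21, 41 (39.4%) lay in 13 stretches in which neighbours among them were at most 500 kb apart. These stretches held 8 other genes of the comparison. Many of the stretches hold members of 1 gene family, such as the lipocalins, defensins or cystatins. The share of all compared genes that lie as close to each other was not computed, so the 39.4% is a description. Chromosome 2 carried 21 of its 1242 compared genes (1.69%) and chromosome 14 carried 8 of 538 (1.49%), against 0.662% overall. At 1 log2 unit, chromosome X had the largest share of higher genes among chromosomes, 26 of 524 (4.96%) against 2.16%, which included Ap1s2, Slc38a5, Adgrg2, Cldn2, the heparan sulphate proteoglycan Gpc4 (114 and 452 counts, 1.97), Mbnl3 (142 and 334, 1.23) and Phf6 (108 and 242, 1.16). Its median log2 ratio was 0.04. Some neighbours were not of the epididymal families. Rnf149, a ubiquitin ligase, and Snord89, a small nucleolar RNA gene beside it, had 141 and 1180.1 and 469 and 3503 counts. Oxtr, the oxytocin receptor, and Cav3 next to it had 27.1 and 149 and 1.74 and 12.9 counts.

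Genes of red blood cells formed a separate higher group. Of 9 listed genes, 7 were measured, 4 were higher by at least 2 log2 units and 2 by 1 to 2, with a median of 2.14. The alpha globin Hba-a2 had 411 and 2213 counts (2.43), and the beta globins Hbb-bs, Hbb-b1 and Hbb-b2 had 453 and 2276, 201 and 890.0 and 161 and 868. Hbb-b1 alone among them lay within the model SD. The near-identical copies of globin genes can share reads, so their division among copies is uncertain. Alas2, the first enzyme of haem synthesis in red cells, had 192 and 708 counts (1.88) and Slc4a1, the anion exchanger of their membrane, 7.16 and 19.7 (1.35). Summed over the list, counts went from 1436 to 6987.

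Other cell types were described by the same kind of list. For leukocytes the median was 0.00 over 20 genes, with Ptprc, the pan-leukocyte CD45, at 116 and 132 counts (0.19). S100a9 and S100a8, partners in the calprotectin of neutrophils, went opposite ways, with 3.36 and 24.1 counts (2.52) and 135 and 59.2 (-1.18). Pan-epithelial genes had a median of -0.13 over 15 genes and summed counts of 26820.4 and 24321, proton pump genes of clear cells -0.06 over 9, and basal cell keratins and their companions 0.17 over 6. The protamines and transition proteins, which pack sperm chromatin, were all 8 above their control level by 0.24 to 1.04, with a median of 0.46. Of these, Prm1 had 185 and 328 counts, Prm2 1584 and 2019 and Tnp1 227 and 387. Genes of the acrosome and egg binding had a median of 0.45 over 19, and those of the sperm tail 0.17 over 28. Genes that define sperm were thus present in both groups, beside the epithelial genes given above. The part of epithelial or blood RNA in the higher genes was not tested.

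A further 246 genes (1.49%) were higher by 1 to 2 log2 units, and 208 of them exceeded the model SD, which their choice by ratio favoured. In this range 107 had under 10 counts in FVB.CTL.F1. Among the highest counts were those of Rbp2, a cellular retinol-binding protein, with 1016 and 2911 counts (1.52), Mfge8, the defensin-like AY761185 with 768 and 2456 (1.68), Rnase9, and the zinc finger gene Zfp174 with 683 and 2055 (1.59). Cdh16, a cadherin of kidney and duct epithelium, had 199 and 765 counts (1.94), Ggt1, which breaks down glutathione at the cell surface, 234 and 513 (1.13), and Alpl, an alkaline phosphatase, 92.8 and 316 (1.76). Crisp4, a sperm-coating relative of Crisp1, had 173 and 435 counts (1.32) while Crisp2 had 525 and 604 (0.20). Slc39a8, a zinc and manganese carrier, had 178 and 429 counts, Grtp1 317 and 656, Mettl7a1 232 and 566, Rspo2, an activator of Wnt signalling, 155 and 333 and Agt, angiotensinogen, 63.0 and 196. The lowest gene counted at 2 log2 units was 0610040B10Rik (2.04) and the highest one below was Gpc4, so the range continued across the threshold.

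Small noncoding RNAs that passed the minimum were displaced upwards as classes, by less than 1 log2 unit. All 113 measured small nucleolar RNA genes had higher counts in FVB.D300.F1, with a median log2 ratio of 0.61, 6 of them past 1. Of 106 genes with a microRNA symbol that passed the minimum, out of 1163 in the list, 91 were higher, the median was 0.45 and 10 were past 1 log2 unit against the background of 2.16%. With no minimum the median was 0, and 422 listed genes had no counts in either group. With a minimum of 100 counts it was 0.53. Members under 10 counts in the controls entered only through their count with DEHP. The symbols take in the host genes Mir143hg, Mir17hg, Mir22hg and Mir99ahg. Over the 99 compared genes that GENCODE types as microRNA the median was 0.47, and 10 were past 1. Housekeeping noncoding RNAs had a median of 0.52 over 11. Against these, genes for cytosolic ribosomal proteins had a median of -0.16 over 84, with 11 above zero, and those of the nuclear-encoded respiratory chain -0.16 over 76. The signs of these medians held under the 3 other scalings of the groups. Mir6236 had the highest counts of the listed genes past 1 log2 unit, 16221 and 34245 counts (1.078, within the model SD), and Mir6240, short of that threshold, had 18306 and 31539.6 (0.78). Whether the reads counted at these loci came from mature microRNAs was not tested.

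The mature sequences of the microRNA genes past 1 log2 unit with at least 20 counts in one group are shown to make their seeds visible, from RefSeq on GRCm38. The seed, bases 2 to 8, is in capitals. The count is that of the gene and does not divide the arms, so both arms are given where the table holds them.
miR-150-3p: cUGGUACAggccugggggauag
miR-1843a-5p: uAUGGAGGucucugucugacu
miR-1843a-3p: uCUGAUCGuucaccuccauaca
miR-1843b-5p: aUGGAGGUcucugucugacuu
miR-1843b-3p: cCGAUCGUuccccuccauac
miR-221-5p: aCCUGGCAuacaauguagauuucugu
miR-221-3p: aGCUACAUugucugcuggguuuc
miR-146b-5p: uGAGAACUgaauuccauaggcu
miR-146b-3p: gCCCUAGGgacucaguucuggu
miR-6236: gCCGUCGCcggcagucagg
miR-6238: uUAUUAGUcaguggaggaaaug
miR-690: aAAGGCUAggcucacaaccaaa
Mir150, a lymphocyte microRNA, had 15.8 and 64.5 counts (1.96), Mir221 21.5 and 46.7 (1.085) and Mir146b, induced in inflammation, 13.2 and 29.1. Mir1843b had 164 and 351 counts (1.09) and Mir1843a 19.0 and 44.5 (1.18). The 5p arms of these last genes share a run of 20 bases shifted by 1 position, so that their seeds differ while their reads can be confused. Of the 12 sequences, no 2 have the same seed. Mir3107 and Mir7061, also past 1 log2 unit, are named only. Both had under 10 counts in the controls, so their direction was fixed by the minimum.

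**Figure D3:**
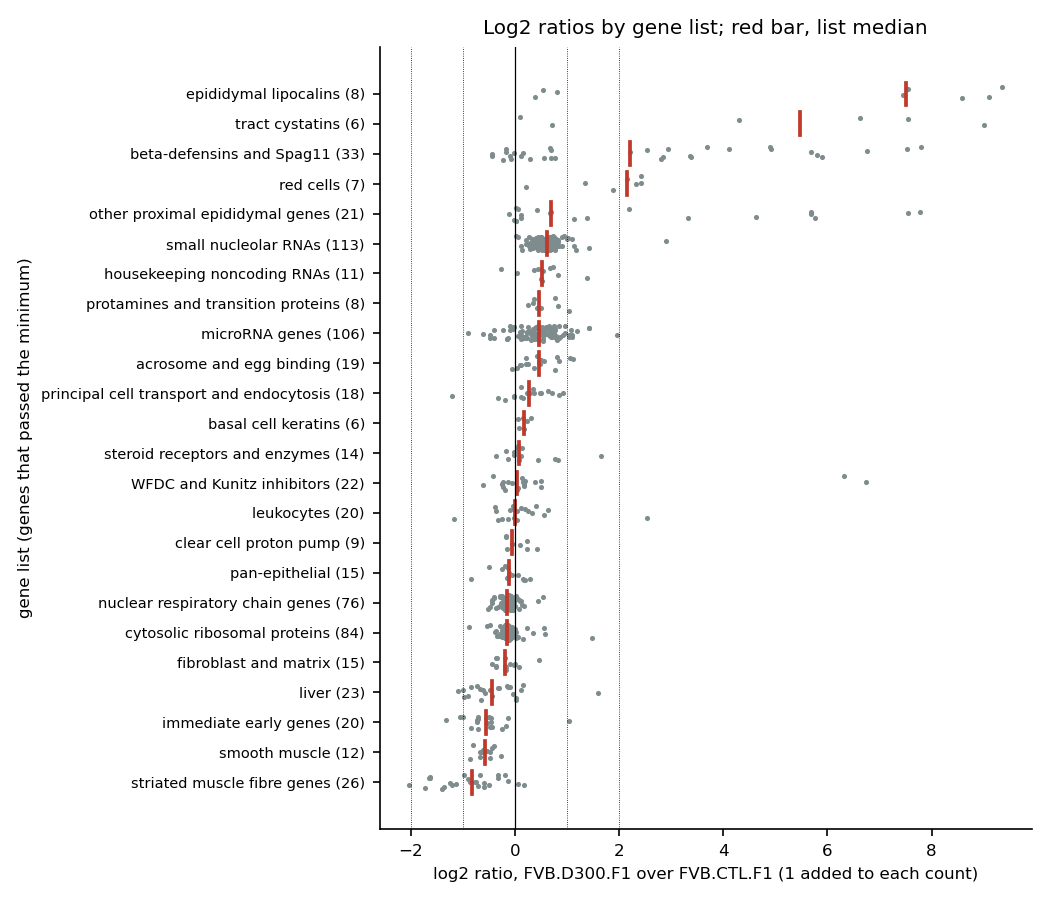
Log2 ratios, DEHP over vehicle (horizontal axis, 1 added to each count), for the genes of 24 lists, with the number of genes that passed the minimum in brackets. Each grey point is 1 gene, the red bar is the list median and dotted lines mark 1 and 2 log2 units. Lipocalins, cystatins, defensins and red cell genes lie to the right, with medians of 7.50, 5.47, 2.21 and 2.14, and the muscle and immediate early lists lie to the left. Genes under 10 counts in the controls could enter only through their count with DEHP.

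Genes lower with DEHP were fewer and smaller in ratio. The 3 genes past 2 log2 units were Tmem252, a membrane protein, with 193 and 38.4 counts (-2.30), the pseudogene Gm5512 with 14.3 and 2.32 (-2.20) and Myh8, a perinatal muscle myosin, with 46.8 and 10.6 (-2.04). Only that of Myh8 exceeded the model SD. Between 1 and 2 log2 units, 99 genes (0.601%) were lower and 82 of them exceeded the model SD, which their choice by ratio favoured. Of the 102 lower genes in all, 36 reached 100 counts in the controls and 9 reached 1000, and none was under 10 there.

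The lower genes with the highest counts include enzymes and carriers of duct epithelia. Akr1b7, an aldo-keto reductase secreted in quantity by the vas deferens, had 14293 and 5954 counts (-1.26, within the model SD). Ptgs2, the inducible cyclooxygenase that is constantly made in the distal vas deferens, had 10401 and 3227 counts (-1.69). Aqp2, a water channel of kidney collecting duct and vas deferens, had 1181 and 424 counts (-1.48), and the potassium channel Kcnj16 552 and 199 (-1.47). Mfsd2a, a carrier of docosahexaenoic acid in lysophospholipids, had the lowest ratio among genes of at least 500 counts, with 888 and 242 counts (-1.87). Other carriers were the efflux pump Abcg2 with 1455 and 625 counts (-1.22), the nucleoside carrier Slc28a3 with 1682 and 831 (-1.02) and the glucose carrier Slc2a3 with 3835 and 1858 (-1.05).

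Metabolic, structural and signalling genes completed the group. Idh1, the cytosolic isocitrate dehydrogenase, had 1246 and 585 counts (-1.09), the kinesin Kif5c 1333 and 555 (-1.26), the actin-severing Scin 504 and 234 (-1.10) and Krt4, a keratin of stratified epithelia, 156 and 50.03 (-1.63). The growth factor Bmp3 had 585 and 213 counts (-1.45). Hey1 and Heyl, repressors downstream of Notch, had 46.1 and 11.4 (-1.92) and 208 and 90.5 (-1.19) counts, while Hes1 had 384 and 308 (-0.32). Has1, a hyaluronan synthase, had 40.2 and 10.6 counts, and Crem, a cAMP-responsive regulator with germ cell forms, 408 and 179 (-1.18).

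Immediate early genes, transcription factors and phosphatases that are induced within minutes of a stimulus, lay below their control level in 19 of 20 measured members, with a median of -0.55. Dusp1 had 232 and 91.5 counts (-1.33), Fos 145 and 68.9 (-1.06), Nr4a1 137 and 68.5 (-0.99) and Junb 429 and 258 (-0.73). The exception was Egr2 with 85.2 and 176 counts (1.03), and 2 of the 20 were past 1 log2 unit downwards against the background of 0.619%. Outside the list, Nr4a3 had 65.4 and 17.2 counts (-1.86) and Gadd45b, a stress-response gene, 57.3 and 26.0 (-1.11). These last genes were chosen after their values were seen and add nothing to the share in the list.

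Genes of smooth and of striated muscle lay mostly below their control level. All 12 smooth muscle genes lay below their control level, between -0.86 and -0.27, with a median of -0.59 and none past 1 log2 unit. Acta2, the smooth muscle actin, had 4996 and 3232 counts and the myosin Myh11 4425 and 3151. In a list of 30 striated muscle fibre genes, chosen after the values were seen, 24 of 26 measured genes were lower, 10 by at least 1 log2 unit, and the median was -0.82. Myh1, Myh2 and Myh7, heavy chains of fast and slow fibres, had 167 and 62.6, 54.9 and 17.0 and 52.5 and 15.99 counts, and the giant Ttn 3227 and 1715 (-0.91). Liver genes were present in traces, with a median of -0.45 over 23. Alb had 524 and 349 counts (-0.59), and Gc, the vitamin D-binding protein, went the other way with 56.7 and 173 (1.60). Fibroblast and matrix genes had a median of -0.19, and endothelial genes -0.11.

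**Figure D4:**
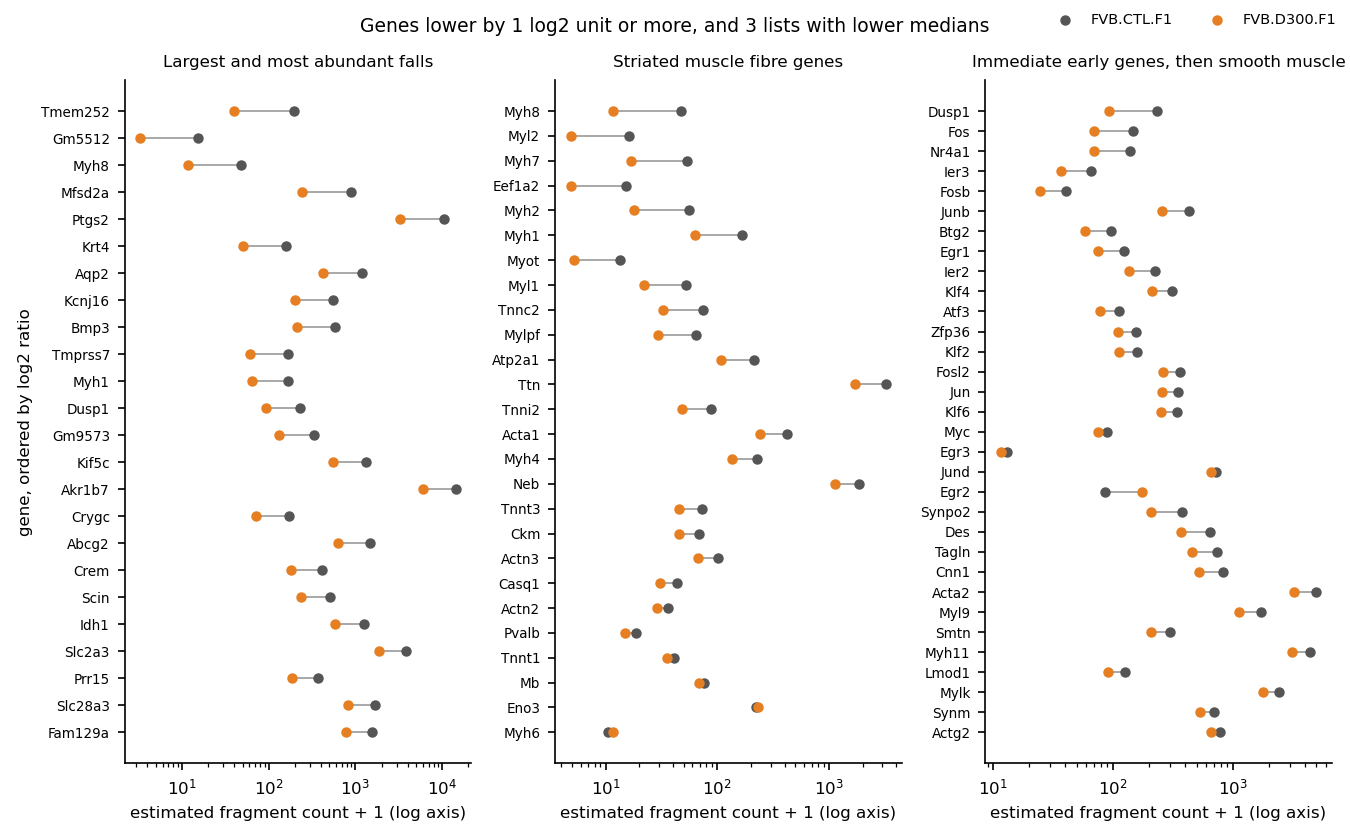
Estimated fragment counts (log axis, 1 added) in FVB.CTL.F1 (grey) and FVB.D300.F1 (orange) of genes chosen by ratio or count among those lower by at least 1 log2 unit (left), of striated muscle fibre genes (centre) and of immediate early followed by smooth muscle genes (right), ordered by log2 ratio within each list. The orange point lies to the left of the grey one throughout, apart from Egr2, Eno3 and Myh6.

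The levels in 3 C57BL/6J groups were set beside both directions. C57.CTL.F1 and C57.D300.F1 are first-generation males of mothers given corn oil or the same DEHP dose, and C57.D300.F2 are second-generation males of the exposed line. The libraries of the first-generation C57BL/6J groups were taken over from earlier work, while those of C57.D300.F2 and FVB/N were newly made, so that strain and library set cannot be told apart. The 109 genes higher by at least 2 log2 units are by their choice high in FVB.D300.F1, so that their place among the groups is a description. In 98 of them this count was the highest of all 5 groups, and 72 stood at least 2 log2 units above each of the other four. The same shares over all compared genes were not computed. Gpx5 had 202, 199 and 162 counts in C57.CTL.F1, C57.D300.F1 and C57.D300.F2, and Adam28 had 19.4, 7.66 and 7.43. Exceptions include 9530053A07Rik, with 1148 counts in C57.D300.F2 against 311 in FVB.D300.F1, and the liver-made Serpinf2 and Serpina10, with 765 and 900.2 counts in C57.CTL.F1 against 63.0 and 12.7. For the globin gene Hba-a2 the 3 counts were 423, 414 and 918. Red cell genes higher by 1 to 2 log2 units differed from it. The counts were 710, 531 and 433 for Alas2, against 192 and 708 in FVB/N. For Slc4a1 they were 11.3, 19.0 and 21.8, against 7.16 and 19.7.

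In the first-generation C57BL/6J comparison, 6 of 16825 genes (0.0357%) were higher and 43 (0.256%) lower by at least 2 log2 units. Of the 109 genes, 54 passed the minimum there and none was higher by 1 log2 unit (1.09% of all genes), while 8 were lower by at least 1 (1.15%). Of the 15720 genes that passed the minimum in both strains, 6 were higher by at least 1 log2 unit in each, among them Mir6236 and Rbp2, the latter with 154 and 2539.5 counts in C57.CTL.F1 and C57.D300.F1. For genes lower with DEHP, which are by their choice high in FVB.CTL.F1, the C57BL/6J groups were compared too. The count in FVB.CTL.F1 was the highest of the 5 groups for 58 of the 102, and at least 1 log2 unit above both first-generation C57BL/6J groups for 41. Shares over all compared genes were not computed here either. Akr1b7 had 127, 98.8 and 5508 counts in C57.CTL.F1, C57.D300.F1 and C57.D300.F2, Aqp2 2.84, 2.56 and 8.39 and Ptgs2 748, 356 and 3276. The striated muscle list had a median of 1.18 over 25 genes in the first-generation C57BL/6J comparison, with 19 higher by at least 1 log2 unit, opposite in sign to that in FVB/N. Myl1 had 156 and 504 counts there against 51.4 and 21.0 in FVB/N. The smooth muscle, immediate early and liver lists had C57BL/6J medians of -0.68, -0.49 and -0.50, of the same sign as in FVB/N. Those of the fibroblast and matrix and endothelial lists, 0.52 and 0.21, were opposite in sign. The difference between strains was not tested.

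**Figure D5:**
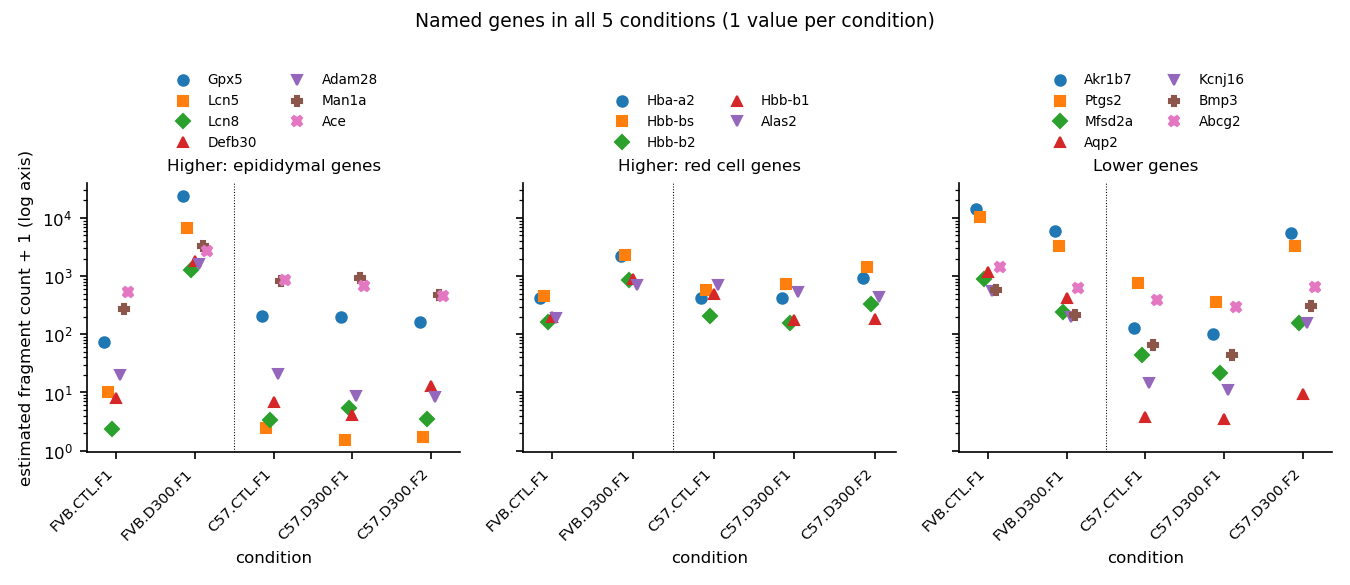
Estimated fragment counts (log axis, 1 added) of named genes in the 5 groups, with 1 value per group from 5 libraries and a dotted line between the FVB/N and C57BL/6J groups. Epididymal genes peak in FVB.D300.F1 (Gpx5, 24121 counts), red cell genes are higher there than in FVB.CTL.F1, and the lower genes are at their highest in FVB.CTL.F1 (Akr1b7, 14293 counts).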

How the data were processed

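All-RNA-seq libraries of cauda sperm RNA, 5 for each of 5 groups, were read on an Illumina instrument after ribosomal depletion and small RNA library preparation. The authors called bases with CASAVA 1.8.2, clipped adapters, mapped to mm10 with TopHat and quantified with Cuffdiff (other versions and the annotation release are not given in the sources used here). The deposited signal is 1 estimated fragment count per gene and group, scaled between libraries by Cuffdiff, and a second deposited column gives its variance under Cuffdiff's model. Status columns mark failed estimates, which were treated as missing. The files hold 1 value per group, so groups came from the labels and columns from their names.

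Log2 ratios used 1 added to each count, a minimum of 10 counts in either group and thresholds of 1 and 2 log2 units. A difference was compared with the square root of the summed model variances. Lists were described by counts and medians. No test across genes was run, since none has replicates. The detection limit was set at 3 counts and covers counting error only. Genes named are the members of the lists, the 15 largest ratios in each direction among genes with at least 100 counts, the 10 largest gains and losses in counts, the 15 highest counts among shifts of 1 to 2 log2 units in each direction, every gene lower by 2, and runs of neighbouring higher genes. Further genes with a known role, among them the transporters, receptors and sugar-chain enzymes, were chosen after their values were seen. Members and lists were chosen with earlier results of these data known, and the lists of striated muscle, Teddm, glycosyltransferase, Notch target and amino acid transporter genes were chosen after the values were seen. Alternatives were 3 scalings, 0.1 or 10 added in place of 1, a minimum of 100 counts or no minimum, values under 3 raised to 3, a difference above the model SD, and leaving out microRNA, snoRNA, Gm and Rik genes. Coordinates are from GENCODE M21 and sequences from RefSeq, both on GRCm38. The calls were also tried on simulated data in which only genes of moderate or high counts were changed. That trial does not cover genes nearly absent from the controls. Python 3.11.15, numpy 2.4.6, pandas 2.3.3 and matplotlib 3.10.9 were used. The results for some genes are not reported here.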

Additional observations from a re-analysis of the deposited data

Results flagged for a closer look

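For 4 genes the ratio of DEHP to vehicle was past 2 log2 units upwards in FVB/N and past 2 log2 units downwards in the first-generation C57BL/6J groups. With 1 value per group this difference between strains was not tested, and strain cannot be told apart from the set of libraries. The gene 9530053A07Rik had 15.7 and 311 counts in FVB/N against 36.2 and 4.08 in C57BL/6J, a difference of log2 ratios of 7.09. The neutrophil gene S100a9 had 3.36 and 24.1 counts against 49.6 and 5.53, a difference of 5.48. Ptpn5, a tyrosine phosphatase, had 6.70 and 70.9 counts against 11.2 and 1.69, a difference of 5.40. Gm10052 had 1.92 and 13.0 counts against 14.8 and 1.52, a difference of 4.91, and each of its groups is near the minimum of 10 counts or under the limit of 3. At 1 log2 unit, 23 of 15720 genes compared in both strains went opposite ways, 13 of them higher in FVB/N.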

How the results depend on the processing

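No paired analysis was possible because the table holds 1 value per group, and leaving out single libraries was not possible for the same reason. No ratio of the 71 named genes changed sign under an alternative. Medians of 13 lists, the farthest of them at 0.16 from zero in the values reported, changed sign in 19 cases over the alternatives. With equal totals the medians were -0.05 for WFDC and Kunitz inhibitors, -0.04 for amino acid transporters, -0.04 for androgen-regulated genes and -0.08 for leukocytes. The number of genes higher by at least 2 log2 units stayed within 1.5 times its value of 109 under every alternative. The 3 genes lower by 2 became 6 with 0.1 added, 1 with 10 added, 1 with a minimum of 100 counts, 10 with no minimum and 1 above the model SD. With 10 added, a minimum of 100 and no minimum, in that order, genes higher by 1 numbered 195, 137 and 834, genes lower by 1 numbered 43, 36 and 301, genes higher by 1 to 2 numbered 115, 64 and 708, and genes lower by 1 to 2 numbered 42, 35 and 291. The lipocalin median was 8.16 with 0.1 added, 5.30 with 10 added and 6.79 with values under 3 raised to 3. With 10 added, the medians were 1.43 for defensins, 3.86 for cystatins and 3.20 for Teddm genes. With no minimum they were 0.69 for defensins and 1.01 for cystatins, and with a minimum of 100 they were 7.09 for cystatins, 4.01 for mucins and -0.75 for Notch targets, against 0.56 and -0.23 for mucins and Notch targets as reported. Of the other values, 453 list medians and 540 ratios of named genes moved by less than 0.5, and 28 ratios of named genes moved by more. Ratios that rest on a few counts in the controls are the least certain, and spread between libraries could not be seen at any depth.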

Other observations

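Crisp1 had 219328 counts after DEHP with a failed estimate in the FVB/N controls, so it has no ratio. Agr2, a protein disulphide isomerase of secretory epithelia, had 0.904 and 62.0 counts in the controls and after DEHP. Saa3, an acute phase protein, had 14.98 and 55.4 counts.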
